A study of Mus musculus with 16 samples.

Results

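The miR-212 and miR-132 cluster is represented here by 2 of the 1247 mouse microRNAs (miRNAs) on the array, mmu-miR-212-3p and mmu-miR-132-3p (mmu stands for mouse and is left off the other names). They were chosen by name, with earlier results of these data known. The RNA came from RAW264.7, a transformed mouse macrophage-like cell line, and was measured on 16 single-colour Agilent arrays in 4 groups of 4. Th2_IL33 cells spent 48 h with 10 ng per ml of the Th2 cytokines IL-4 and IL-13, made by type 2 helper T cells, and then 4 h with 20 ng per ml of recombinant mouse IL-33. Media_IL33 cells were grown in medium alone and given the same IL-33. Th2 cells received the Th2 cytokines without IL-33, and Media cells received neither. All 4 groups share the line, the serum-containing medium and the 48 h of growth, and each array of a group comes from 1 of 4 separately coded experiments, numbered 1 to 4. The design asks whether prior exposure to Th2 cytokines alters how macrophages answer IL-33, an alarm cytokine of damaged epithelium.

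The genes of miR-212 and miR-132 lie side by side and are transcribed as 1 primary RNA, from which the hairpins of both are cut. In neurons that transcription is driven by CREB, the cAMP response element binding protein, after synaptic activity or growth factor signals, and the locus is known for its part in dendrite growth. In innate immune cells miR-132 is known as a miRNA induced by lipopolysaccharide and by viral infection, and among its known targets are acetylcholinesterase and the coactivator p300. A miRNA finds its messenger RNA targets mainly through its seed, bases 2 to 8 from the 5′ end.

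The mature sequences are shown because both miRNAs carry the same seed, given in capitals, and differ only in the part that the array probes read. They are RefSeq sequences on the GRCm38.p6 build, where all 4 arms of the cluster were matched by name.
miR-212-3p: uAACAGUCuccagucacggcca
miR-132-3p: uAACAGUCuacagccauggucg
miR-212-5p: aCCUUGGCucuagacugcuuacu
miR-132-5p: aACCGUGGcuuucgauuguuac
Of 1679 mature mouse sequences in the table, miR-212-3p and miR-132-3p were the only 2 with the seed AACAGUC, and neither 5p arm shared its seed with another entry. Mir212 lies at chr11:75173388-75173478 and Mir132 at chr11:75173682-75173747, both on the plus strand, with 203 bases between them. No other annotated gene overlapped the pair, and the nearest were Hic1, 3132 bases on the lower-coordinate side, and Ovca2, 2195 bases on the higher-coordinate side. MiR-212-3p occupies chr11:75173443-75173464 and miR-132-3p chr11:75173723-75173744. The 3p arms are identical at 17 of 22 positions (77.3%), including the first 9 bases. They differ by A10C, C14U, U17C, U20C and G22A, with the base of miR-132-3p first, that of miR-212-3p last and positions counted from the 5′ end.

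Each arm was read by 2 probes of 20 spots. The probes of the 3p arms, as the scanner files give them in DNA letters, are shown because they decide which of the near-identical miRNAs a spot can bind.
miR-212-3p, 13 bases: tggccgtgactgg
miR-212-3p, 14 bases: tggccgtgactgga
miR-132-3p, 15 bases: cgaccatggctgtag
miR-132-3p, 16 bases: cgaccatggctgtaga
The miR-212-3p probes are complementary to bases 10 to 22 and 9 to 22 of that miRNA, and the miR-132-3p probes to bases 8 to 22 and 7 to 22 of theirs. All 5 differing positions fall inside every one of these probes, so each meets 5 mismatches on the other 3p arm. Each of the 4 had a full match in 1 mature mouse sequence, its own. The miR-212-3p probes were short and rich in G and C: their mean GC content was 66.8%, against a median of 51.5% over the 231 miRNAs tested below, and that of the miR-132-3p probes was 58.1%. Since probes of different sequence bind with different strength, the signals of the 2 miRNAs cannot be set against each other as amounts.

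Signals are given as relative signal, in which the background-subtracted probe intensities of a miRNA were summed and divided by the 75th percentile that the array had among 178 miRNAs, those detected on each of the 16 arrays. A value of 1 is the signal at that percentile. For the tests, values under a floor of 0.0353 (the 1st percentile of detected signals) were set to it before the log2 was taken. The arrays carried 49880 miRNA spots each, of which 2040 to 3929 were marked as outliers, and the scanner software detected 206 to 256 mouse miRNAs per array. The median correlation of an array with the others of its group was 0.874 for Media 3, 0.920 for Media 1 and 2, 0.945 for Th2_IL33 2 and at least 0.968 for the other 12. The myeloid miRNA miR-223-3p was detected on 16 of 16 arrays, as were miR-146a-5p and miR-21a-5p. The listed myeloid miR-511-3p was detected on 8: all 4 Th2 and all 4 Th2_IL33 arrays, but 0 in Media and Media_IL33. MiR-142-3p and miR-142-5p, also listed, were not on the array under those names, but miR-142a-3p and miR-142a-5p were among the tested miRNAs. The neuronal miR-124-3p, miR-9-5p and miR-137-3p were detected on 0, while miR-128-3p, also counted among neuronal markers, was detected on 14. Of the muscle markers, miR-206-3p was detected on 11 arrays, and miR-1a-3p and miR-133a-3p on 0.

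The signal of mmu-miR-212-3p was above background in all 4 groups with overlapping values, and it did not pass the test in any comparison. It was detected on 16 of 16 arrays, with 635 of its 640 spots well above background and none saturated, and the 5 remaining spots were all on Media 2. In Th2_IL33 cells its relative signals were 0.807, 0.975, 0.889 and 0.986 in experiments 1 to 4. The Media_IL33 arrays gave 0.653, 0.872, 0.802 and 0.922. For Th2 the values were 0.792, 0.587, 0.785 and 1.01, and for Media 0.923, 0.834, 0.467 and 0.859. The ranges of all 4 groups overlap, and the lowest value of the 16, 0.467, belongs to Media 3, the array that correlated least with its own group. On the intensity scale before scaling, the summed signal ran from 287 to 570 units over the arrays.

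The group means followed the order Th2_IL33 (0.914 ± 0.0838, SD, n = 4), Media_IL33 (0.812 ± 0.117), Th2 (0.794 ± 0.173) and Media (0.771 ± 0.206). No neighbours in this order differed beyond their spread. The SD of the log2 values was 0.13 in Th2_IL33, 0.22 in Media_IL33, 0.32 in Th2 and 0.45 in Media. Both orders rest on Media 3: without it, a setting chosen after seeing the data, the Media mean was 0.872 ± 0.0456 (SD, n = 3), above those of Media_IL33 and Th2, and its log2 SD of 0.075 was the smallest of the 4.

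**Figure D1:**
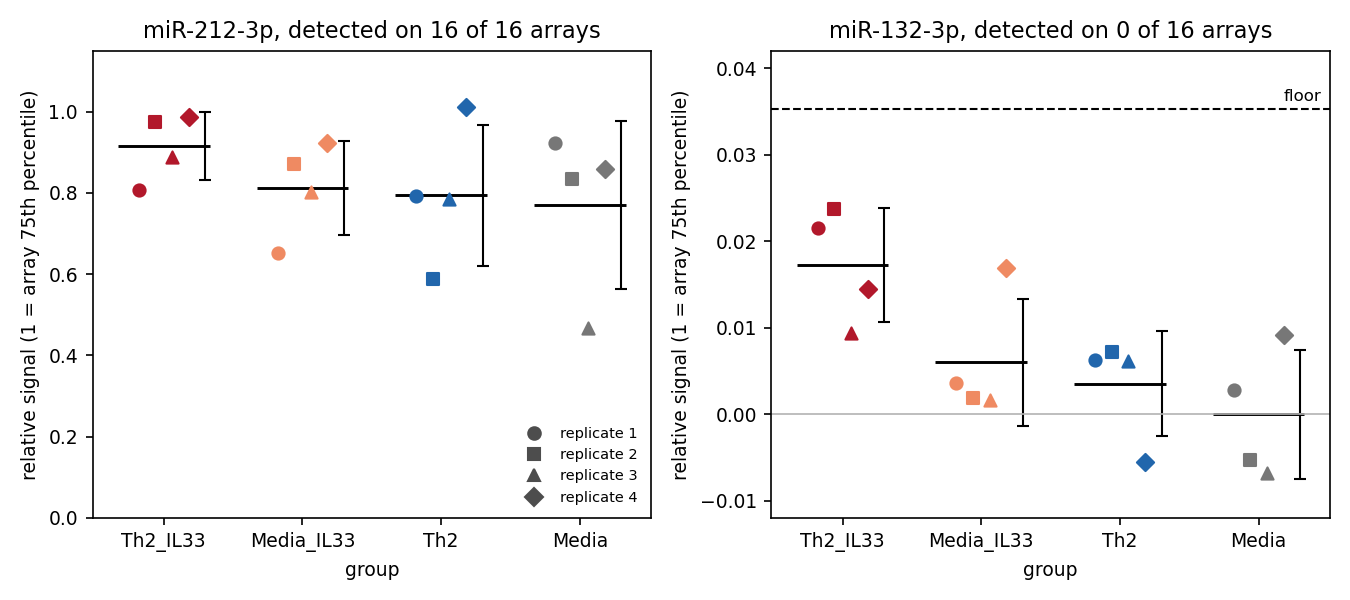
Relative signal of miR-212-3p (left) and miR-132-3p (right, before the floor) on each of the 16 arrays, by group, with 1 symbol per experiment; lines are means and bars SD (n = 4). The miR-212-3p values overlap between all groups (0.467 to 1.01), and every miR-132-3p value lies under the floor of 0.0353 drawn as a dashed line.

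Both probes of miR-212-3p gave differences of the same sign. The 14-base probe ran from 202 to 398 intensity units and the 13-base probe from 84.9 to 189, and the median coefficient of variation between the spots of the shorter probe was 10.9%. Over the 16 arrays their log2 signals correlated with r = 0.951, a description across arrays that share sample and scan. Their log2 differences were positive in each of the 6 comparisons, which share groups. The largest were 0.28 with the longer and 0.32 with the shorter probe, both for Th2_IL33 with Media. These signs are those of the main scaling. When every miRNA was reduced to its brightest probe and rescaled, Th2 with Media was -0.028 for miR-212-3p.

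**Figure D2:**
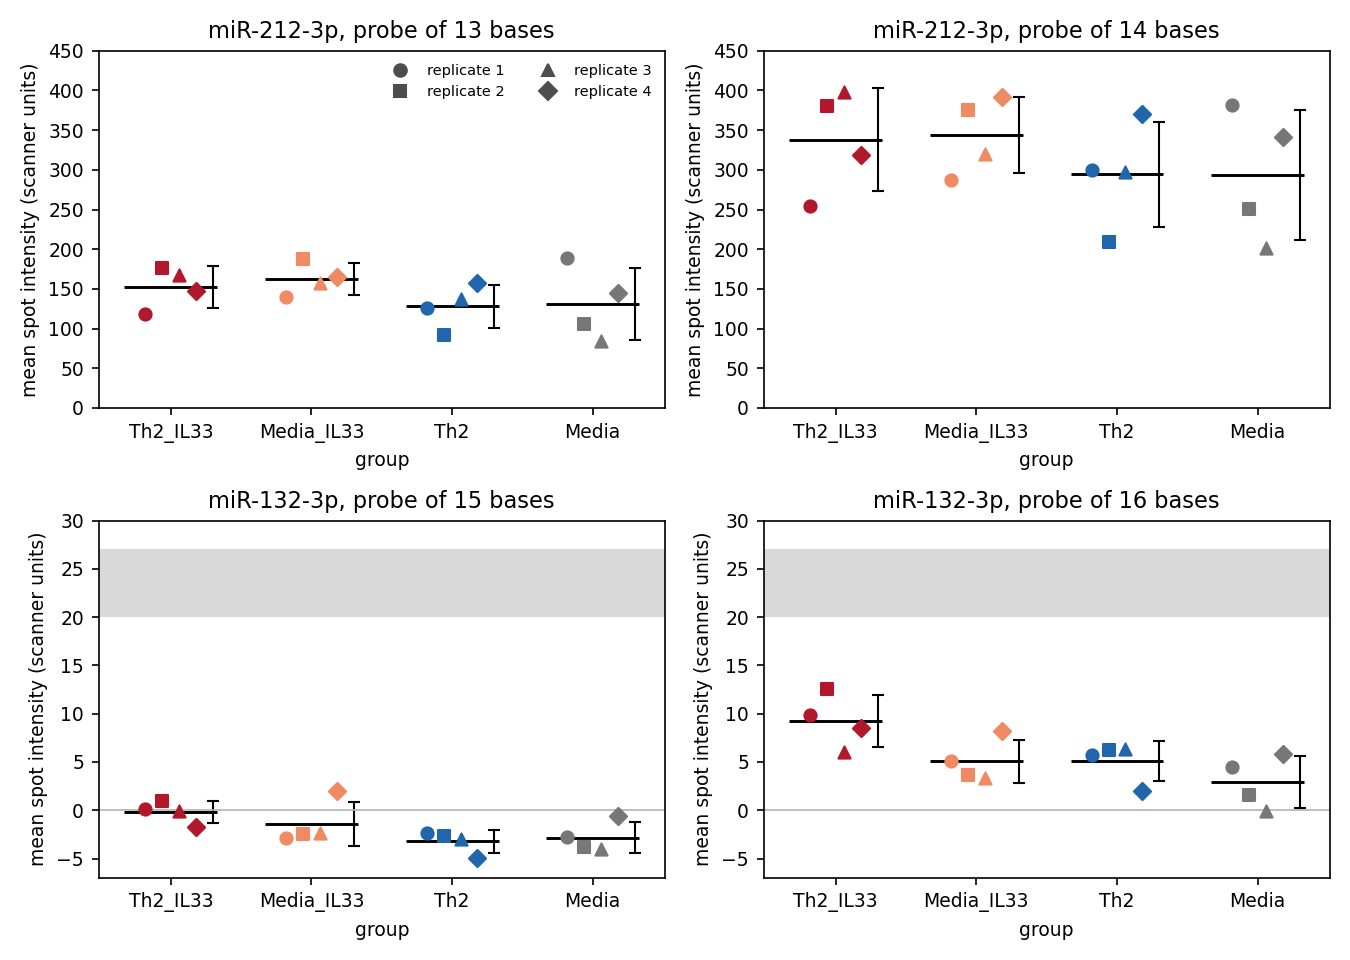
Mean spot intensity of each probe of miR-212-3p (top) and miR-132-3p (bottom) on each array, by group, with means and SD (n = 4). Every array lies above 80 units for both miR-212-3p probes, while no miR-132-3p probe reaches the grey band, which spans the lowest probe intensity well above background on the 16 arrays (20.1 to 26.9 units).

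Th2 with Media asks what growth in Th2 cytokines does without IL-33. MiR-212-3p averaged 0.794 ± 0.173 in Th2 and 0.771 ± 0.206 in Media (SD, n = 4 each), a log2 difference of 0.064 ± 0.21 (SE, limma adjusted p = 0.922), and it was higher in Th2 in 2 of 4 experiments. The 95% interval ran from 1.30-fold lower to 1.43-fold higher. Of the 231 tested miRNAs 22 passed the threshold of 0.05 (9.52%), and the median absolute log2 difference over them all was 0.22, so miR-212-3p moved less than most (rank 197 of 231). The median of the signed differences was itself 0.063, near the 0.064 of miR-212-3p. Media 3 set the sign: without it the log2 difference was -0.16 (limma adjusted p = 0.598). Without Th2 4, the highest Th2 array, it was -0.061.

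Media_IL33 with Media asks what 4 h of IL-33 does in medium-grown cells, and it shares the Media arrays with the preceding comparison. MiR-212-3p averaged 0.812 ± 0.117 in Media_IL33 and 0.771 ± 0.206 in Media, a log2 difference of 0.11 ± 0.21 (limma adjusted p of 1), higher in 3 of 4 experiments. The interval ran from 1.26-fold lower to 1.47-fold higher. Passing miRNAs numbered 4 of 231 (1.73%), and the median absolute difference was 0.092 (rank 95 of 231 for miR-212-3p). Here too the sign turned without Media 3, to -0.11 (limma adjusted p = 0.774), and the slides disagreed, with 0.31 within slide 1 and -0.29 within slide 2.

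Th2_IL33 with Th2 asks the same of IL-33 in Th2-grown cells. MiR-212-3p averaged 0.914 ± 0.0838 in Th2_IL33 and 0.794 ± 0.173 in Th2, a log2 difference of 0.23 ± 0.21 (limma adjusted p of 1), higher in 3 of 4 experiments. Its interval reached from 1.17-fold lower to 1.59-fold higher. The share of tested miRNAs past the threshold was again 4 of 231 (1.73%), and the median absolute difference was 0.090, so here miR-212-3p moved more than most (rank 43 of 231). All Th2_IL33 arrays were on slide 2, as was only 1 Th2 array, Th2 4 with the highest miR-212-3p signal of the series (1.01). Against that array alone the difference within slide 2 was -0.15, and with slide as a block it was 0.077.

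Th2_IL33 with Media_IL33 asks what Th2 growth does in the presence of IL-33. This comparison gave the only difference of miR-212-3p that had 1 direction in 4 of 4 experiments, 0.914 ± 0.0838 in Th2_IL33 and 0.812 ± 0.117 in Media_IL33, yet the log2 difference of 0.18 ± 0.21 did not pass (limma adjusted p = 0.585). The interval ran from 1.20-fold lower to 1.54-fold higher, the ranges overlapped, and 22 of 231 miRNAs passed (9.52%). The median of all 231 differences was itself 0.080, and the share of tested miRNAs with 1 direction in 4 of 4 experiments is not given here. MiR-212-3p ranked 151 of 231 by absolute difference, and with slide as a block its difference was 0.079. The direction turned in the authors' deposited table (-0.11), and with outlier spots kept the difference was -5.85e-05.

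Th2_IL33 with Media sets both treatments together against neither. It gave the largest log2 difference of miR-212-3p, 0.29 ± 0.21, with means of 0.914 ± 0.0838 in Th2_IL33 and 0.771 ± 0.206 in Media (limma adjusted p = 0.399), higher in 3 of 4 experiments. Its interval ran from 1.12-fold lower to 1.67-fold higher. Of the tested miRNAs 24 passed (10.4%), and the median of all 231 differences was itself 0.13 (rank 120 of 231 for miR-212-3p by absolute difference). Without Media 3 the miR-212-3p difference was 0.065, with slide as a block 0.14, and against the lone Media array of slide 2 it was -0.018.

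The interaction, which subtracts Media_IL33 with Media from Th2_IL33 with Th2, was 0.11 ± 0.30 for miR-212-3p (limma adjusted p = 0.995). It asks whether Th2 growth alters the IL-33 response, and its interval of -0.52 to 0.75 spans changes of either sign. No miRNA passed it (0 of 231, 0%, with 5 at an unadjusted limma p under 0.05 and 1 past the threshold with array weights). The value was 0.34 without Media 3, -0.022 without Th2 2 and 0.015 with slide as a block.

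**Figure D3:**
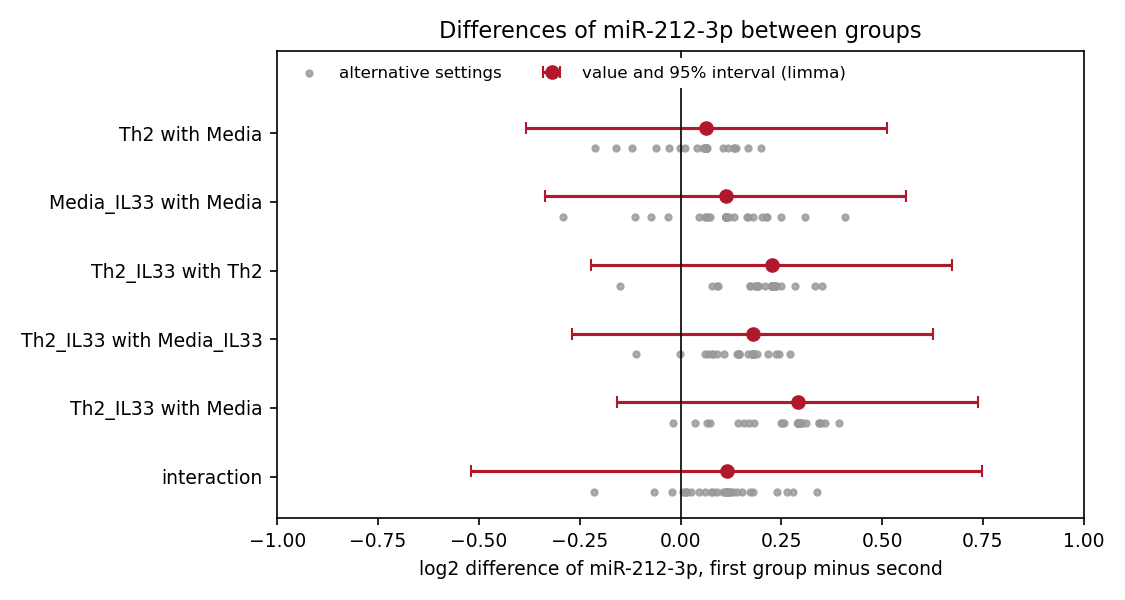
Log2 differences of miR-212-3p in the 6 comparisons (red, with 95% intervals from limma) and the same differences under the alternative settings and with single arrays left out (grey points). Every interval spans 0, and the alternative values run from -0.29 to 0.41.

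The signal of mmu-miR-132-3p, the arm with the same seed, was not well above background in any group. The scanner software detected it on 0 of 16 arrays, and 6 of its 640 spots were marked well above background, at most 2 on any array. Before the floor its relative signals were 0.0215, 0.0237, 0.00932 and 0.0145 in Th2_IL33 and 0.00354, 0.00184, 0.00164 and 0.0169 in Media_IL33. The Th2 arrays gave 0.00630, 0.00712, 0.00617 and -0.00555, and the Media arrays 0.00279, -0.00533, -0.00680 and 0.00918. All 16 values lie under the floor and under 0.0253, the lowest relative signal that any array called well above background, so no log2 difference, fold or test is given. Not being above background bounds the signal of these probes and does not show that miR-132-3p was absent.

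Within that background range the Th2_IL33 values were the highest as a group. They averaged 0.0172 ± 0.00658, against 0.00599 ± 0.00735 in Media_IL33, 0.00351 ± 0.00605 in Th2 and -4.11e-05 ± 0.00745 in Media (SD, n = 4 each). Every Th2_IL33 array lay above every Th2 and every Media array, by a narrow margin for Media (0.00932 on Th2_IL33 3, 0.00918 on Media 4), whereas Media_IL33 4 (0.0169) lay within the Th2_IL33 range. Of all 1247 miRNAs, 1.68% had all Th2_IL33 arrays above all Th2 arrays and 2.97% had them above all Media arrays, and among the 926 miRNAs detected on no array these shares were 1.19% and 1.08%. The miR-132-3p ranges overlapped in the other 3 comparisons. There, full separation upward was seen for 4.25% of all miRNAs and 1.84% of those detected on no array in Th2_IL33 with Media_IL33, 1.76% and 1.73% in Media_IL33 with Media, and 2.49% and 0.648% in Th2 with Media. In the authors' deposited table the Th2_IL33 range overlapped both that of Th2 and that of Media. It overlapped Th2 when outlier spots were kept or the longer probe was taken alone, and Media after quantile normalization or with the shorter probe alone. Slide moves with group here, since slide 2 holds all 4 Th2_IL33 arrays: the other 4 arrays of that slide had -0.00555 to 0.00354, all under the Th2_IL33 arrays. The part of the slide in this separation was not tested.

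The probes of miR-132-3p differed in sign on most arrays. Both were above 0 on Media_IL33 4, Th2_IL33 1 and Th2_IL33 2, and both were under 0 on Media 3. The 16-base probe gave -0.114 to 12.6 intensity units and was above 0 on 15 of 16 arrays. The 15-base probe gave -4.91 to 2.00 and was above 0 on 3. Both stayed under 20.1 units, the lowest intensity of any probe marked well above background.

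The partner strands, cut from the other side of each hairpin, were not above background either. MiR-212-5p had relative signals of -0.00638 to 0.00657 and miR-132-5p of -0.00340 to 0.00539 over the 16 arrays, with 2 and 1 of 640 spots well above background. Of the 4 arms of the cluster, only miR-212-3p had probes well above background on these arrays, and whether that signal came from miR-212-3p alone was not tested. The correlation between miR-132-3p and miR-212-3p over the arrays was not computed, because miR-132-3p lay under the floor on all 16.

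Other miRNAs of related induction gave a mixed picture. The list of 5 miRNAs induced by activity or CREB in neurons holds the 2 partner strands of the cluster, miR-134-5p, miR-184-3p and miR-124-3p. The scanner software detected 0 of them on any array. Since 926 of all 1247 mouse miRNAs were detected on no array, this is not read as a result about the list. Of 12 miRNAs that NF-kB or Toll-like receptor signals are known to induce, a list that leaves out the cluster, 8 were tested. The other 4, miR-155-3p, miR-147-3p, miR-9-5p and miR-187-3p, were detected on no array. The list was chosen with earlier results of these data known, so its counts and medians are descriptions. In Media_IL33 with Media the list median log2 difference was 0.77, against 0.023 over all tested miRNAs. Of the 8, 4 rose and 0 fell, and these 4 were all the tested miRNAs that passed (1.73%). They were miR-21a-3p, the partner strand of the macrophage miRNA miR-21a-5p (1.93), miR-155-5p, a regulator of macrophage activation (1.17), and miR-146a-5p and miR-146b-5p, which dampen Toll-like receptor signalling (1.08 and 0.95). In Th2_IL33 with Th2 3 of 8 rose and 0 fell (median 0.53 against 0.0015, with 1.73% of all passing): miR-21a-3p (1.43), miR-155-5p (1.86) and miR-146a-5p (0.90). In Th2 with Media 2 of 8 rose, miR-146b-5p (1.47) and miR-21a-5p (0.80), with a list median of 0.17 against 0.063. In Th2_IL33 with Media_IL33 also 2 rose, miR-146b-5p (0.95) and miR-155-5p (0.72), with a median of 0.11 against 0.080. Of all tested miRNAs 9.52% passed in each of these comparisons. In Th2_IL33 with Media 5 of 8 rose (10.4% of all passed, median 1.20 against 0.13), among them miR-146a-5p at 1.21 ± 0.16 (SE, limma adjusted p = 4.54e-05), and in the interaction 0 passed. MiR-155-5p, miR-146b-5p and miR-21a-3p each lay under the floor on at least 1 Media array, and miR-155-5p also on 1 Th2 array, so their differences from those groups depend on it. MiR-155-5p was detected on 1 of 4 Th2 and 2 of 4 Media arrays. MiR-21a-3p was detected on 2 and miR-146b-5p on 3 of 4 Media arrays, and all 3 miRNAs on every array of the IL-33 groups. MiR-155-5p therefore passed the filter only through the IL-33 groups, where its signal was high. MiR-146a-5p was detected on all 16 arrays, and its difference of 1.08 ± 0.16 in Media_IL33 with Media lies above the upper end of the miR-212-3p interval in that comparison, 0.56. The difference between the 2 miRNAs was not tested.

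**Figure D4:**
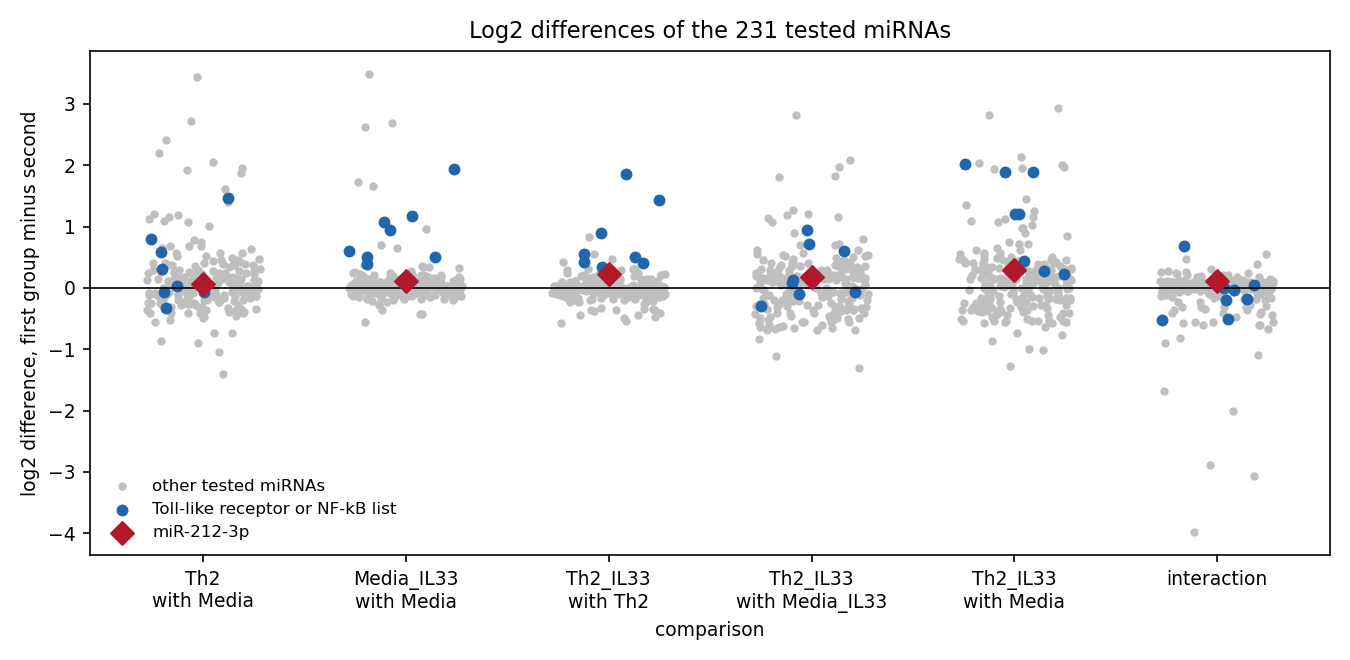
Log2 differences of the 231 tested miRNAs in each comparison, with miR-212-3p as a red diamond and the 8 tested miRNAs of the Toll-like receptor or NF-kB list in blue. MiR-212-3p lies between 0.064 and 0.29 in every column, inside the cloud of the other miRNAs, while members of the list reach 1.93 in Media_IL33 with Media.

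The miRNAs whose log2 signal followed miR-212-3p most closely over the 16 arrays were miR-6368 (Pearson r = 0.891), miR-320-3p (0.871), miR-5107-5p (0.870), miR-697 (0.834) and miR-551b-5p (0.831). Over all 230 other tested miRNAs the median r was 0.283, and 8 exceeded 0.8. The points share the arrays and their scaling, so these values are descriptions. With group means subtracted the 5 correlations were 0.815 to 0.899. All 6 miRNAs had their lowest value on Media 3, and without that array the 5 correlations were 0.645 to 0.846, still the 5 highest. The 5 were picked for following miR-212-3p, which is itself lowest on Media 3. How many other tested miRNAs are lowest there was not counted. None of the 5 passed in any of the 6 comparisons. Their probes had mean GC contents of 58.6% to 70.3%, against 66.8% for miR-212-3p and the median of 51.5%. MiR-320-3p, miR-697 and miR-551b-5p, at 58.6% to 59.9%, were near the 58.1% of the miR-132-3p probes. MiR-6368, miR-697 and miR-551b-5p, which were matched in the sequence table, lie on chromosomes 13, 4 and 3 and share at most 4 bases in a row with miR-212-3p. What part probe composition and array quality have in this shared pattern was not tested.

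**Figure D5:**
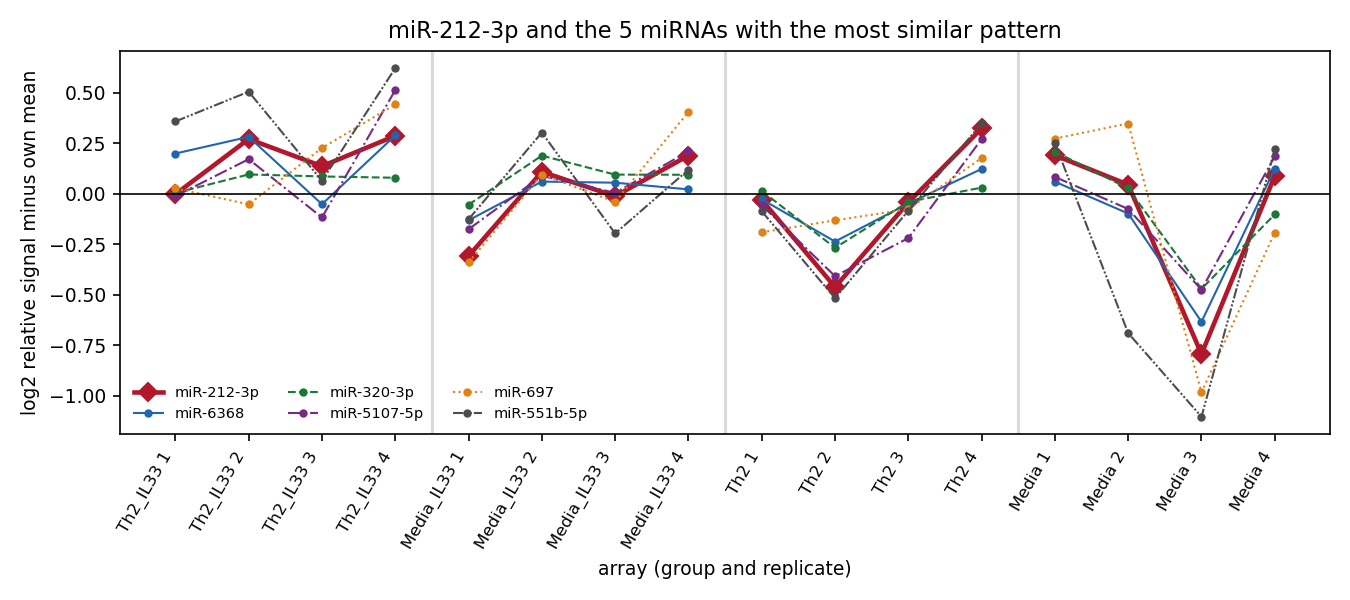
Log2 relative signal of miR-212-3p (red diamonds) and of the 5 miRNAs most correlated with it, each minus its own mean over the 16 arrays, which are ordered by group and experiment. The 6 lines share their lowest point on Media 3 and lie apart on some other arrays, such as Media 2 (-0.69 for miR-551b-5p, 0.35 for miR-697).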

How the data were processed

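The 16 samples were each measured on 1 Agilent array in the Cy3 channel. The deposited scanner output holds spot intensity, corrected for background and spatial trend by Feature Extraction 10.7.3.1 per the file headers, and not normalized across arrays. A second deposited table, by the authors, holds normalized probe intensity with a median of 0.428 in every column. The submitters' processing notes name Partek 6.6 and RMA.

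Here, spots marked as outliers were dropped, the remaining spots averaged per probe, and probes summed per miRNA. The miRNAs tested were those that some group showed as detected on each of its 4 arrays (231, including miR-212-3p but not miR-132-3p) with limma 3.58.1 in R 4.3.3, as 1 mean per group over 16 arrays (12 residual degrees of freedom), with Benjamini-Hochberg adjustment over the tested miRNAs of a comparison. The test was checked on simulated data. The number of arrays limits the precision. No miRNA spot was saturated.

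Replicate numbers pair the arrays, since the labels' descriptions give all same-numbered samples 1 experiment letter. Over the tested miRNAs, deviations from group means correlated with a median r of 0.112 between same-numbered arrays (24 pairs, -0.694 to 0.728) and -0.0482 between others (72 pairs). Slide 2 holds all 4 Th2_IL33, 2 Media_IL33, 1 Th2 and 1 Media array, and slide 1 the rest.

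The members, the lists, the rule for named miRNAs (members, partner strands, the 5 most correlated miRNAs, list members past the threshold) and the alternatives were chosen with earlier results of these data known. The comparisons of miR-132-3p ranges under other sources of values were added after seeing the data. Sequences are those of RefSeq and of the scanner files.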

Additional observations from a re-analysis of the deposited data

Results flagged for a closer look

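In 3 of 16 groups of 4 values examined for the cluster's 4 arms, a single array lay far from the other 3 for the range of its group, judged on log2 values for miR-212-3p and on linear values for the arms under the floor. Chance alone gives about 1 such group in 20. MiR-212-3p on Media 3 had a relative signal of 0.467, where the nearest Media array had 0.834. This array met the limit on the log2 scale, where the gap was 85.2% of the group's range, and fell short of it on the linear scale (80.6%). MiR-132-3p on Media_IL33 4 had 0.0169 with the next array at 0.00354, and on Th2 4 it had -0.00555 with the next at 0.00617. Both miR-132-3p values are under the floor.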

How the results depend on the processing

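Over 194 alternative values of miR-212-3p none passed the threshold and 17 turned direction. These were 6 for Th2 with Media (normexp background correction -0.00051, brightest probe alone -0.028, array weights -0.21, without Media 1, Media 3 and Th2_IL33 2 together -0.12, without Media 3 -0.16 and without Th2 4 -0.061), 4 for Media_IL33 with Media (array weights -0.032, without those 3 arrays -0.072, without Media 3 -0.11, within slide 2 -0.29), 1 for Th2_IL33 with Th2 (within slide 2 -0.15), 2 for Th2_IL33 with Media_IL33 (authors' deposited table -0.11, outlier spots kept -5.85e-05), 1 for Th2_IL33 with Media (within slide 2 -0.018) and 3 for the interaction (authors' table -0.21, outlier spots kept -0.066, without Th2 2 -0.022). Limma adjusted p ran from 0.195 to 1. Leaving out single arrays gave -0.16 to 0.20, -0.11 to 0.21, 0.090 to 0.35, 0.078 to 0.24, 0.065 to 0.39 and -0.022 to 0.34 in the same order of comparisons. The causes were not tested. MiR-132-3p had no value under any alternative, since its filter was never passed or all its values lay at the floor. With no filter, miRNAs at the floor on every array were left out. The replicate block left the miR-212-3p differences as they were (Th2_IL33 with Media 0.29, adjusted p = 0.355) and changed no call of it.

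Counts of miRNAs past the threshold moved by over 1.5 times as follows. In Th2 with Media (22) array weights gave 64 and slide 2 alone 4. In Media_IL33 with Media (4) normexp and the filter to miRNAs detected on all 16 arrays gave 1 each, the fit without those 3 arrays and slide 1 alone 2 each, and slide 2 alone 0. In Th2_IL33 with Th2 (4) scaling to the percentile over all miRNAs, normexp, the authors' table and the stricter filter gave 2 each, and slide 2 alone 0. In Th2_IL33 with Media_IL33 (22) scaling over all miRNAs gave 12, the authors' table and the stricter filter 14 each, replicate and slide blocks together 37, and array weights 71. In Th2_IL33 with Media (24) quantile normalization gave 41 (23 higher, 18 lower, against 22 and 2), the replicate block 42 (29 higher, 13 lower), both blocks 49 and slide 2 alone 11. In the interaction (0) array weights gave 1. Quantile normalization also moved the median of all log2 differences in Th2_IL33 with Media from 0.13 to -0.039. Without single arrays the counts were 19 to 30, 3 to 5, 3 to 4, 19 to 36 (the highest without Media 3), 24 to 40 (the highest without Media 1) and 0.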
